A study of Homo sapiens with 12 samples.

Results

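The genes described here take up, store, export and sense iron. They were fixed as a list of 10: TFRC, STEAP3 and SLC11A2 (uptake), FTH1, FTL and NCOA4 (storage and its release), SLC40A1 (export), and ACO1, IREB2 and FBXL5 (sensing). Every probe set that the platform annotation gives to exactly 1 of these symbols was taken. Of the 10 genes, 8 had such a probe set, 21 in all, among 54613 probe sets tested. FTH1 and IREB2 were not analysed here. RNA of MDA-MB-231 cells, a widely used human cell line from a metastatic breast carcinoma, was measured on 12 Affymetrix whole-genome arrays. The 4 Sharp1 arrays came from cells overexpressing Sharp1, a transcriptional repressor encoded by BHLHE41. The 4 shHIF arrays came from cells carrying a retroviral hairpin construct against HIF1a and HIF2a, and the 4 shGFP arrays from control cells with a retroviral hairpin against GFP. All cells grew in ordinary serum-containing medium and were harvested without hypoxia or any other treatment. The sources used here state neither the vector of the Sharp1 cells nor whether the lines were pools or clones. The shGFP line is the control for both manipulations. The labels call the replicates A to D biological without saying that they came from separate cultures, so the spread behind each p-value is that between these arrays and may be technical.

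Cells import iron bound to transferrin through the transferrin receptor, reduce it in endosomes with the STEAP3 reductase and move it to the cytosol through the transporter DMT1, encoded by SLC11A2. Ferritin, a shell of heavy (FTH1) and light (FTL) chains, stores iron, and NCOA4 carries ferritin to the lysosome to free it, while ferroportin (SLC40A1) exports it. The iron regulatory proteins IRP1 (ACO1) and IRP2 (IREB2) bind iron-responsive elements in mRNAs when iron is scarce, which stabilises TFRC mRNA and blocks translation of ferritin. FBXL5 is the iron-binding ubiquitin ligase subunit that removes IRP2 when iron is plentiful. HIF transcription factors activate several iron genes: TFRC is a known HIF1 target, and in the mouse intestine HIF2 activates Slc11a2, Cybrd1 and Slc40a1.

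Promoter windows are shown for TFRC, whose mRNA rose in both manipulations, of STEAP3, whose mRNA fell in both, and of FBXL5, which holds the E-box letters that Sharp1-type repressors are known to bind. Each is a RefSeq window of GRCh38.p14, 250 bases before to 50 bases after a transcription start, printed 5′ to 3′ on the gene's strand. Capitals mark matches, on either strand, to the core letters of a hypoxia response element (ACGTG or GCGTG), to the E-box CACGTG, which contains ACGTG on both strands, or to the antioxidant response element TGACNNNGC.
TFRC, minus strand, chr3:196082041-196082340: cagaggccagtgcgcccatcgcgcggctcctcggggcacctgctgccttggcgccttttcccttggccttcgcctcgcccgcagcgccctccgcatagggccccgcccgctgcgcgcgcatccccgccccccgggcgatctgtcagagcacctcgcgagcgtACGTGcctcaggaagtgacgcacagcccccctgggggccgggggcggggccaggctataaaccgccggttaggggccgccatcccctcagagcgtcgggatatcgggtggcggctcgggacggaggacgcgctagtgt
STEAP3, plus strand, chr2:119223584-119223883: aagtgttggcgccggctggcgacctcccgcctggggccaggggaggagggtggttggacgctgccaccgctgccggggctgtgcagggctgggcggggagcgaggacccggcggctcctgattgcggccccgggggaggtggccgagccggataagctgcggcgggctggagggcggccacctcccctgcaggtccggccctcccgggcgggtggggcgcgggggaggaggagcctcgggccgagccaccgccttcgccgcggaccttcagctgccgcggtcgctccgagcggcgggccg
FBXL5, minus strand, chr4:15655308-15655607: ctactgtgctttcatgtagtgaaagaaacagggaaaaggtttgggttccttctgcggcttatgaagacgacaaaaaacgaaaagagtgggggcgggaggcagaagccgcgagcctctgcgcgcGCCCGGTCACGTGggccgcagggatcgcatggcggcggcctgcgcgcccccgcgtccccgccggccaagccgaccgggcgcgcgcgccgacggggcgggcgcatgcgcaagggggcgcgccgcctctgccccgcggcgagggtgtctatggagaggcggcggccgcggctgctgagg
The TFRC window held ACGTG, with its first base 88 bases before the start, and no other of the 4 motifs. The STEAP3 window held none of them. The FBXL5 window held CACGTG with its first base 120 bases before the start, overlapping a TGACNNNGC match on the opposite strand. Over all 35097 windows of this length, 21.4% held ACGTG, 36.5% GCGTG, 7.25% CACGTG and 13.3% TGACNNNGC. The 8 measured genes have 12 windows, of which 3 held ACGTG (TFRC, FTL and FBXL5), 5 held GCGTG, 1 held CACGTG and 2 held TGACNNNGC. A match is only the presence of these letters.

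The array medians lay between 5.39 and 5.44 on the log2 scale, and arrays of a group correlated at 0.9957 or more. BHLHE41 read 8.87 to 9.56 in Sharp1 cells, against 3.82 to 3.95 in shGFP cells, on the probe set with the largest rise, while on the probe set that was brightest in shGFP cells it fell by 2.06. In shHIF cells EPAS1, which encodes HIF2a, kept 13.8% of its shGFP signal, and in Sharp1 cells 61.1%. HIF1A kept 60.2% in shHIF cells and differed by 0.09 in Sharp1 cells (adjusted p = 0.0836). All 7 markers chosen for MDA-MB-231, among them VIM and CD44, read above the median probe set in every group. Of 7 markers chosen as low in this line only 2 read below it, and KRT8 was among those above. Mean signal of 12 luminal breast markers was 7.74 to 7.76 in Sharp1, 8.21 to 8.35 in shHIF and 8.39 to 8.50 in shGFP arrays. In Sharp1 against shGFP 1 luminal marker was higher and 5 lower, and in shHIF against shGFP 2 and 4. Over all genes 14% were higher and 10.7% lower in Sharp1, and 16% and 12.3% in shHIF, shares that apply to every marker list here. The luminal markers did not move together: in Sharp1 cells AGR2 differed by -3.01 and TFF1 by -2.61, XBP1 by 0.52 and KRT18 by 0.04. In shHIF cells AGR2 differed by 0.37. Leukocyte markers averaged 5.02 to 5.16 in Sharp1, 5.32 to 5.44 in shHIF and 5.39 to 5.50 in shGFP arrays, with 6, 6 and 5 of 9 below the median probe set. Of these 9, 1 was higher and 2 lower in Sharp1 against shGFP, and 1 and 1 in shHIF. The dim PTPRC was higher in both (0.44 and 0.37), LYZ was lower in both (-1.26 and -0.72), and LAPTM5, above the median probe set, was lower in Sharp1 cells (-2.18). Fibroblast markers were higher for 3 of 10 in Sharp1 and 2 of 10 in shHIF cells, with 0 lower by limma (1 and 0 at an unadjusted p under 0.05), at list means of 4.67 to 4.95 over the 12 arrays. Erythroid markers had 0 of 5 called in either manipulation, and liver markers 0 of 6 in Sharp1 and 1 of 6, HAMP, in shHIF cells. At an unadjusted p under 0.05 limma gave the same counts for these 2 lists. What these markers contribute to the iron results was not tested. Spike-in signal averaged 8.04 on shHIF A and 8.03 on shHIF D, where the remaining arrays had 8.20 to 8.56. The ribosomal RNA controls averaged 12.16 on Sharp1 B and 13.14 on shGFP D, and 13.30 to 13.46 elsewhere. The 3′ actin control read above the 5′ one by 0.94, 0.90, 0.91 and 0.62 on shHIF A to D. This log2 difference was 0.59 to 0.74 on the shGFP arrays and 0.56 to 0.85 on the Sharp1 arrays. Its part in the shHIF differences was not tested.

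Changes were tested with limma over all tested probe sets, and "called" means a Benjamini-Hochberg adjusted p under 0.05. All differences are differences of mean log2 signal, with the standard error (SE) of that difference and 4 arrays per group. A probe set's signal is not a level that can be set against another probe set's, so changes were tested within probe sets only. List means and readings above or below the median probe set are only rough marks of bright or dim signal. Of the 21 probe sets, 3 were higher and 3 lower in Sharp1 against shGFP, where 9.82% and 8.26% of all probe sets were. In shHIF against shGFP 4 were higher and 5 lower, where the shares over all probe sets were 10.7% and 11.5%. In Sharp1 against shHIF 8 were higher and 4 lower, against 15.3% and 13.8% of all. The 2 groups did not overlap for 8, 10 and 13 of the 21, where 21.6%, 22.3% and 28% of all probe sets did not. Calls are more frequent on bright probe sets: in the brightest decile, which holds 7 of the 21, 44.6%, 51.6% and 63.2% of all probe sets were called in the 3 comparisons, and 2, 6 and 5 of those 7. The median difference over the 21 was 0.048, 0.036 and 0.001, beside -0.008, 0.024 and -0.042 over all probe sets. Counted by gene on its brightest probe set, 1 of 8 was higher and 1 lower in Sharp1 against shGFP, where 14% and 10.7% of all 19775 genes were. In shHIF against shGFP 2 were higher and 4 lower (16% and 12.3% of all genes), and in Sharp1 against shHIF 5 and 1 (17.2% and 18.9%). The median difference over the 8 genes was 0.048, -0.11 and 0.168, beside -0.002, 0.047 and -0.06 over all genes, so in shHIF cells it has the opposite sign to the median over the 21 probe sets.

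**Figure D1:**
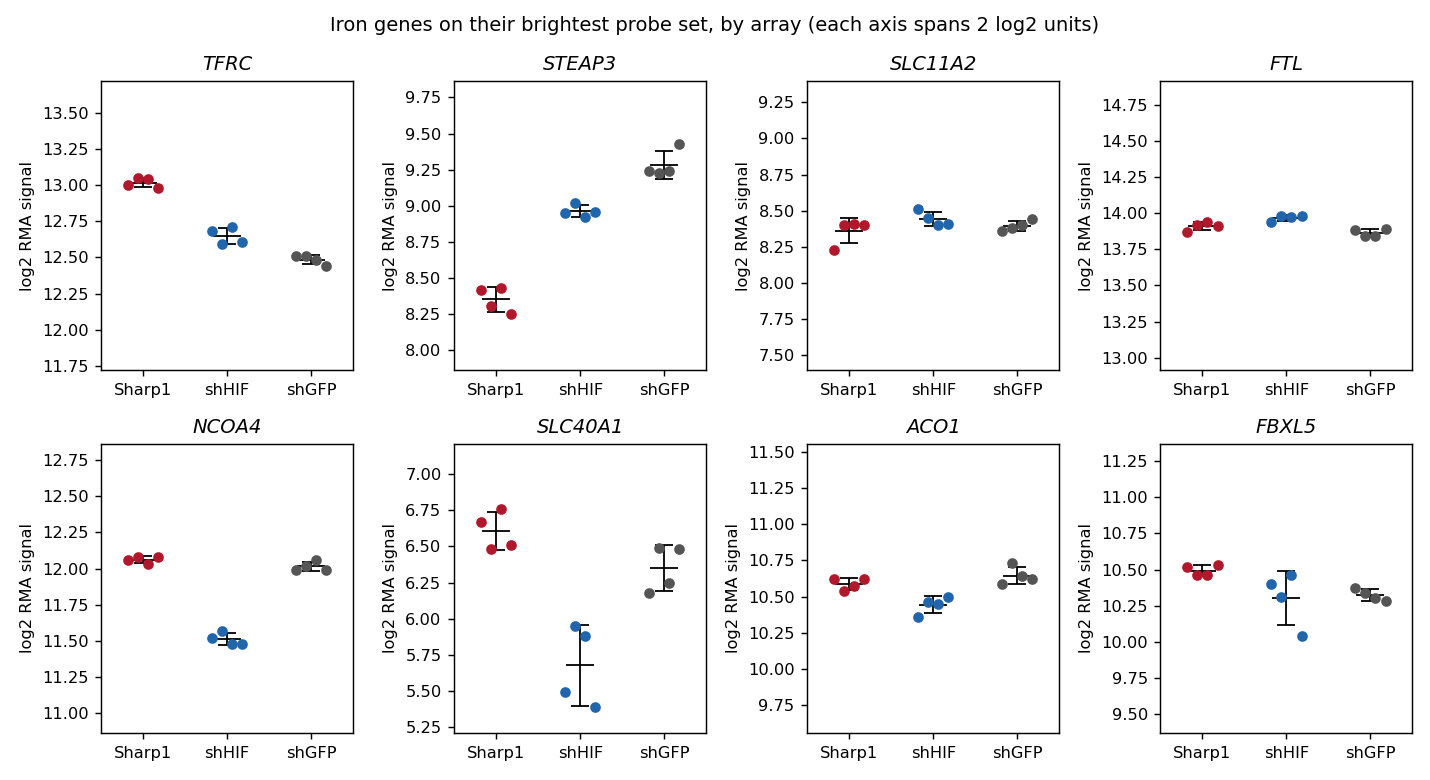
Log2 RMA signal of the 8 measured iron genes on their brightest probe set, 1 point per array, with the group mean and SD (n = 4). Every axis spans the same length, so distances can be compared between panels: TFRC is highest and STEAP3 lowest in Sharp1 cells, with shHIF between Sharp1 and shGFP, while NCOA4 and SLC40A1 are lowest in shHIF cells.

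Transferrin receptor mRNA was higher in both manipulations, and more so with Sharp1. TFRC read 13.00, 13.05, 13.04 and 12.98 in Sharp1 cells, 12.68, 12.59, 12.71 and 12.61 in shHIF cells, and 12.51, 12.51, 12.48 and 12.44 in shGFP cells on its brightest probe set. The 3 groups did not overlap. Against shGFP this was a 1.44-fold rise in Sharp1 cells (log2 0.53, SE 0.03, adjusted p = 1.02e-11) and a 1.12-fold rise in shHIF cells (log2 0.16, SE 0.03, adjusted p = 0.000625), 2 comparisons that share the control arrays. Sharp1 stood above shHIF by 0.37 (SE 0.03, adjusted p = 3.57e-09). A second bright probe set, 207332_s_at, gave 0.56, 0.19 and 0.38 for the same comparisons, all called. The other 3 TFRC probe sets were called in none. One of them, 237214_at, read 2.90 to 3.27 over the 12 arrays, and 240686_x_at read 5.89 to 6.31. The third, 237215_s_at, read 7.04, 4.99, 7.20 and 7.21 in Sharp1 cells, against 6.67, 6.69, 6.63 and 6.06 in shGFP cells, and it was low on the 2 arrays with the lowest ribosomal RNA signal, Sharp1 B and shGFP D. Averaged over its 5 probe sets, TFRC differed by 0.25 in Sharp1 cells (adjusted p = 0.0467) and by 0.15 in shHIF cells, where the call was lost (adjusted p = 0.236), as was that of Sharp1 against shHIF (0.10, adjusted p = 0.391).

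STEAP3, the endosomal ferrireductase that acts downstream of the receptor, moved the other way. It read 8.42, 8.31, 8.43 and 8.25 in Sharp1 cells, 8.95, 9.02, 8.92 and 8.96 in shHIF cells, and 9.24, 9.23, 9.24 and 9.43 in shGFP cells. Again no 2 groups overlapped. Sharp1 cells kept 52.4% of the shGFP signal (log2 -0.93, SE 0.06, adjusted p = 1.49e-11) and shHIF cells 80.1% (log2 -0.32, SE 0.06, adjusted p = 0.00023). Sharp1 lay below shHIF by a log2 difference of -0.61 (SE 0.06, adjusted p = 1.27e-08). The dimmer probe set, 1554830_a_at, read 5.80, 5.38, 5.99 and 5.76 in Sharp1 cells, against 6.71, 6.73, 6.72 and 6.76 in shGFP cells, which left 50.2% (adjusted p = 1.24e-07). In shHIF cells the same probe set differed by -0.25 and was not called (adjusted p = 0.0996). The difference between the highest and lowest group mean was 0.934 for STEAP3 and 0.927 for SLC40A1, ahead of the other 6 genes on their brightest probe sets. The order of these 2 is not settled: SLC40A1 was ahead when any 1 of 5 of the 12 arrays was left out (Sharp1 B or D, shHIF B or C, or shGFP D).

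STEAP3, ahead with all 12 arrays included, was taken for a search of the genes closest in profile, by the mean absolute difference of log2 values, each centred on its own mean over the 12 arrays. Over 19767 genes the median of this distance was 0.357. The 4 nearest were RAB27B (0.053), ANKH (0.057), PDK3 (0.059) and RAB38 (0.059). RAB27B, a GTPase of vesicle secretion, averaged 8.53 ± 0.07 in Sharp1, 9.14 ± 0.06 in shHIF and 9.53 ± 0.09 in shGFP cells (SD, n = 4). PDK3, a pyruvate dehydrogenase kinase, averaged 7.37 ± 0.09, 7.86 ± 0.07 and 8.17 ± 0.05 in the same groups. RAB38, a GTPase of lysosome-related organelles, averaged 8.78 ± 0.08, 9.41 ± 0.04 and 9.81 ± 0.10, and ANKH, a membrane transporter of pyrophosphate and ATP, 8.33 ± 0.04, 9.07 ± 0.05 and 9.28 ± 0.07. All 4 were lowest in Sharp1 and highest in shGFP cells, which follows from the search, as it chose genes close to STEAP3 on these same arrays.

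SLC11A2, the DMT1 gene and a HIF2 target in the mouse intestine, changed little. Its brightest probe set read 8.23, 8.40, 8.41 and 8.40 in Sharp1 cells, 8.51, 8.45, 8.40 and 8.41 in shHIF cells, and 8.36, 8.38, 8.40 and 8.44 in shGFP cells, so the groups overlapped. The difference was -0.03 in Sharp1 (95% interval -0.15 to 0.09, adjusted p = 0.803) and 0.05 in shHIF (95% interval -0.07 to 0.17, adjusted p = 0.647). In shHIF cells none of its 5 probe sets was called. In Sharp1 cells 1 of the 5 was, 203125_x_at, at 6.31, 6.43, 6.55 and 6.45 in Sharp1 against 6.67, 6.79, 6.65 and 6.57 in shGFP cells (log2 -0.24, SE 0.08, adjusted p = 0.0426), and this kind of probe set can bind related transcripts. Against shHIF, Sharp1 was lower on that probe set (-0.27, adjusted p = 0.0105) and on 203123_s_at (-0.19, adjusted p = 0.0272). The other 2, 210047_at and 237106_at, read 3.30 to 4.03 on all arrays, below the median probe set (5.41).

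Storage was split between a ferritin chain that hardly moved and a ferritin receptor that fell in shHIF cells. FTL read 13.87, 13.92, 13.94 and 13.91 in Sharp1 cells, 13.94, 13.98, 13.97 and 13.98 in shHIF cells, and 13.88, 13.84, 13.84 and 13.89 in shGFP cells. The shHIF arrays lay above all shGFP arrays by a narrow margin, a 1.07-fold rise (log2 0.10, SE 0.03, adjusted p = 0.00394), and the Sharp1 arrays overlapped both groups (0.05 against shGFP, 95% interval 0.00 to 0.10, adjusted p = 0.237). The second FTL probe set gave 0.09 in shHIF (adjusted p = 0.013) and 0.02 in Sharp1 (adjusted p = 0.604). Both FTL probe sets are of the kind that can bind related transcripts. The shHIF call on the brighter was lost without the variance trend (adjusted p = 0.174).

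NCOA4, the receptor that takes ferritin into autophagosomes, read 12.06, 12.08, 12.03 and 12.08 in Sharp1 cells, 11.52, 11.57, 11.48 and 11.48 in shHIF cells, and 11.99, 12.02, 12.06 and 11.99 in shGFP cells. All 4 shHIF arrays lay well below the other 8, which overlapped. The shHIF cells kept 70.5% of the shGFP signal (log2 -0.50, SE 0.03, adjusted p = 9.11e-11). Sharp1 cells differed from shGFP by 0.05 (95% interval -0.02 to 0.12, adjusted p = 0.417) and from shHIF by 0.55 (SE 0.03, adjusted p = 4.97e-12). NCOA4 has a single probe set here, so no second reading was at hand.

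Ferroportin followed NCOA4 in direction. SLC40A1 read 6.67, 6.48, 6.76 and 6.51 in Sharp1 cells, 5.49, 5.95, 5.88 and 5.39 in shHIF cells, and 6.18, 6.49, 6.25 and 6.48 in shGFP cells. The shHIF arrays lay below all others, and the Sharp1 and shGFP arrays met at 6.48 and 6.49. In shHIF cells 62.7% of the shGFP signal was left (log2 -0.67, SE 0.12, adjusted p = 0.000101). In Sharp1 cells the difference from shGFP was 0.25 and not called (95% interval 0.01 to 0.49, adjusted p = 0.156), while that from shHIF was 0.93 (SE 0.12, adjusted p = 7.45e-07). The lower 2 shHIF arrays, A and D, are those with low spike-in signal, and without them the shHIF difference from shGFP was -0.44 (adjusted p = 0.00709) and Sharp1 stood 0.69 above shHIF (adjusted p = 4.79e-05). The other SLC40A1 probe set, 233123_at, read 4.42 to 4.79 throughout, below the median probe set, and with both averaged the shHIF difference from shGFP was -0.32 (adjusted p = 0.00936) and that of Sharp1 from shHIF 0.46 (adjusted p = 0.000393).

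**Figure D2:**
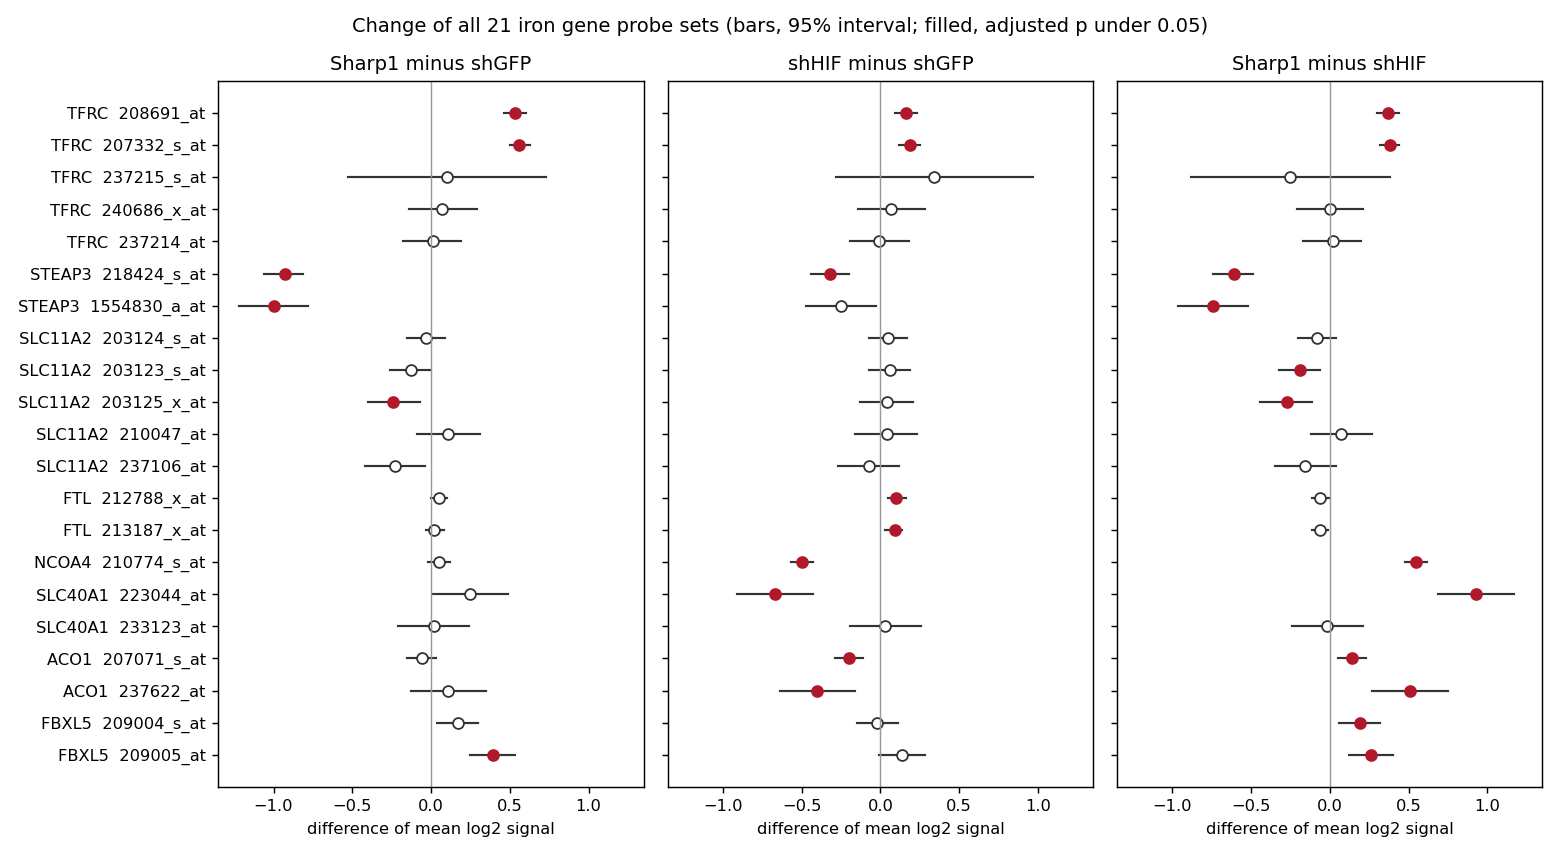
Difference of mean log2 signal for all 21 probe sets in the 3 comparisons, with the 95% interval of each difference (4 arrays per group) and filled points for an adjusted p under 0.05. The TFRC and STEAP3 pairs of bright probe sets lie on opposite sides of 0 in each panel, NCOA4 and SLC40A1 stand out in the shHIF panel, and the interval of TFRC 237215_s_at is the widest.

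ACO1, which is a cytosolic aconitase when it holds an iron-sulphur cluster and IRP1 when it does not, was lower in shHIF cells. It read 10.62, 10.54, 10.57 and 10.62 in Sharp1 cells, 10.36, 10.46, 10.45 and 10.50 in shHIF cells, and 10.59, 10.73, 10.64 and 10.62 in shGFP cells. The shHIF arrays lay below the other 8, leaving 87.1% of the shGFP signal (log2 -0.20, SE 0.04, adjusted p = 0.00137). The dimmer probe set 237622_at read 5.0, 4.41, 4.90 and 4.97 in shHIF cells, against 5.11, 5.35, 5.21 and 5.18 in shGFP cells (log2 -0.40, adjusted p = 0.0146), with all 8 values below the median probe set. Sharp1 cells differed from shGFP by -0.06 (95% interval -0.15 to 0.03, adjusted p = 0.472) and from shHIF by 0.14 (adjusted p = 0.0147). That call against shHIF was lost without shHIF A (adjusted p = 0.0672) and without shHIF A and D (adjusted p = 0.0508), and over its alternatives the adjusted p ranged from 0.000502 to 0.0764. It was also lost with quantile normalization and without the variance trend.

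FBXL5, the sensor that degrades IRP2, had its highest readings in Sharp1 cells. Its brightest probe set read 10.52, 10.46, 10.46 and 10.53 in Sharp1 cells, 10.40, 10.31, 10.46 and 10.04 in shHIF cells, and 10.37, 10.34, 10.30 and 10.28 in shGFP cells. The Sharp1 arrays lay above all shGFP arrays, by 0.17 (SE 0.06), but the adjusted p of 0.0566 missed the threshold. It passed in 10 of 22 alternatives, with a range of 0.00126 to 0.179. Among these were the fits without shHIF D (adjusted p = 0.00371) and without shHIF C (adjusted p = 0.0324), with the replicate letter as a block (adjusted p = 0.0498), and with the 2 groups alone (adjusted p = 0.00219). The second probe set, 209005_at, read 8.87, 8.88, 8.86 and 8.97 in Sharp1 cells, against 8.44, 8.64, 8.38 and 8.55 in shGFP cells, a 1.31-fold rise (log2 0.39, SE 0.07, adjusted p = 0.000124). In shHIF cells FBXL5 differed by -0.02 and 0.14 on these probe sets (adjusted p = 0.876 and 0.175). Sharp1 was above shHIF by 0.19 and 0.26 (adjusted p = 0.0208 and 0.00528), and the first of these calls was lost without Sharp1 A (adjusted p = 0.0534), Sharp1 D (adjusted p = 0.0569) or shHIF D, the lowest array, where the difference itself was 0.11 (adjusted p = 0.0936), in a range of 0.00305 to 0.139 over its alternatives. The same call was also lost with quantile normalization, without the variance trend and without shHIF A and D.

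**Figure D3:**
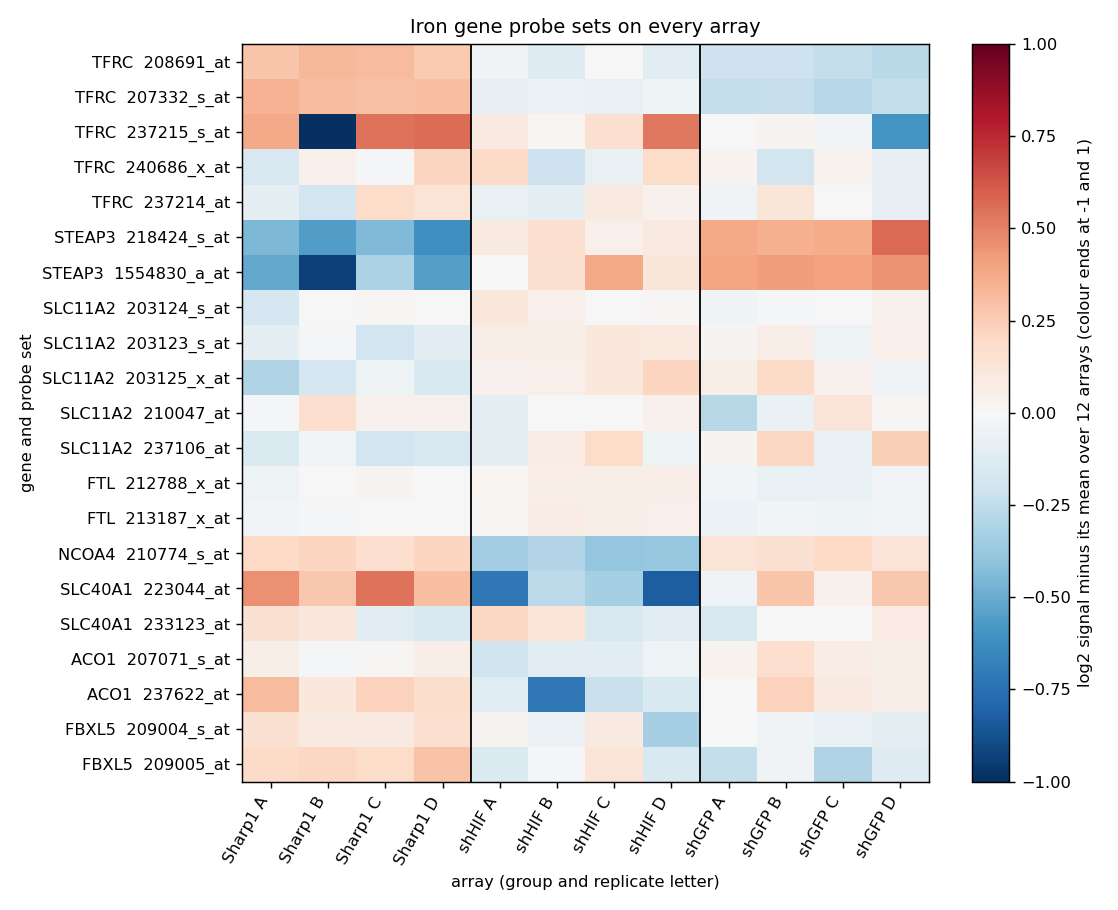
Log2 signal of each of the 21 probe sets minus its own mean over the 12 arrays, with arrays in columns by group and replicate letter, red above the mean and blue below. The first 2 TFRC rows run opposite to both STEAP3 rows, NCOA4 and SLC40A1 223044_at are blue in the shHIF columns, and the dark cell at Sharp1 B is TFRC 237215_s_at at 4.99.

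The comparisons with shGFP share its 4 arrays, so their calls on the same gene are not independent. In bulk RNA, fewer cells with a transcript and less transcript per cell cannot be told apart.

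Other genes of iron handling were read on their brightest probe set, from lists chosen by function. The shares of all genes given above for the 8 genes apply to these lists too. They are not matched for brightness, and calls are more frequent on bright probe sets. The first list held 25 genes of iron transport, reduction and related functions. HAMP, HFE, PCBP1 and PCBP2 on it are neither transporters nor reductases. Of the 25, 3 were higher and 4 lower in Sharp1, 4 and 2 in shHIF, and 3 and 7 in Sharp1 against shHIF. The median differences were -0.025, 0.051 and -0.081, against -0.002, 0.047 and -0.06 over all genes.

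SLC39A14 was higher in Sharp1 and lower in shHIF cells, and CYBRD1 was higher in Sharp1 cells. SLC39A14 (ZIP14), an importer of iron not bound to transferrin, read 11.06, 11.04, 10.98 and 11.10 in Sharp1 cells, 10.02, 10.00, 10.04 and 10.11 in shHIF cells, and 10.68, 10.78, 10.69 and 10.60 in shGFP cells. It was higher by 0.36 in Sharp1 (adjusted p = 1.37e-06) and lower in shHIF (log2 -0.65, adjusted p = 1.49e-10), and Sharp1 stood 1.01 above shHIF (adjusted p = 1.47e-14), with no overlap between any groups. CYBRD1, the ferric reductase DCYTB and a HIF2 target in the mouse intestine, read 10.21, 10.19, 10.12 and 10.24 in Sharp1 cells, 9.15, 9.31, 9.39 and 8.81 in shHIF cells, and 9.45, 9.43, 9.43 and 9.40 in shGFP cells. It rose by 0.76 in Sharp1 (adjusted p = 7.79e-08), and in shHIF it differed by -0.26 (adjusted p = 0.0188). That call rested on shHIF D, the lowest array: without it the difference was -0.14 (adjusted p = 0.0681), and with both low spike-in arrays (shHIF A and D) left out it was -0.08 (adjusted p = 0.395). STEAP1, of the same reductase family as STEAP3, fell by 0.56 in Sharp1 cells, and HFE, a partner of the transferrin receptor, fell by 0.31. The HFE probe set is of the kind that can bind related transcripts. SLC46A1, a haem and folate transporter, rose by 0.48 in shHIF cells and by 0.27 in Sharp1 cells (adjusted p = 2.17e-05 and 0.00834). HAMP, the hepcidin gene, read 4.79 to 5.11 in shHIF cells against 4.61 to 4.69 in shGFP cells, all below the median probe set, a difference of 0.32 (adjusted p = 0.0201). That call was lost without shHIF A (adjusted p = 0.0737), shHIF D (adjusted p = 0.0646) or shGFP B (adjusted p = 0.0509), and without shHIF A and D the difference was 0.18 (adjusted p = 0.31). Without shHIF A and D, 2 genes of this list were higher and 1 lower in shHIF against shGFP, and 3 were lower in Sharp1 against shHIF.

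Haem genes were called lower in shHIF cells for 7 of 18 and higher for 3, although the median difference over the 18 was positive, at 0.056. In Sharp1 cells 4 were higher and 1 lower (median 0.07), and in Sharp1 against shHIF 5 and 4 (median 0.036). Most of these 18 genes also lie in deciles 9 and 10 of brightness. There 48.9% and 51.6% of all probe sets were called, in either direction, in shHIF against shGFP. CPOX, an enzyme of haem synthesis, read 10.63, 10.72, 10.56 and 10.78 in Sharp1 cells, 9.57, 9.56, 9.75 and 9.56 in shHIF cells, and 10.63, 10.67, 10.60 and 10.63 in shGFP cells. In shHIF cells 49.3% of the shGFP signal was left (log2 -1.02, SE 0.05, adjusted p = 6.79e-13), and it differed by 0.04 in Sharp1 cells (adjusted p = 0.714). ALAD, an earlier enzyme of the same route, also fell in shHIF cells (-0.38). In Sharp1 cells ALAD rose by 0.21 (adjusted p = 0.0118), a call lost without Sharp1 C (adjusted p = 0.0558) or shGFP B (adjusted p = 0.0554). HMOX1, which degrades haem and frees its iron, read 7.67, 7.70, 7.80 and 7.68 in Sharp1 cells, 8.19, 8.09, 8.10 and 7.91 in shHIF cells, and 7.34, 7.21, 7.19 and 7.37 in shGFP cells. It rose in both manipulations, by 0.44 in Sharp1 and 0.80 in shHIF (adjusted p = 5.03e-05 and 8.54e-09). BLVRB, a biliverdin reductase, rose by 0.39 in shHIF cells. Of the haem exporters, FLVCR1 rose by 0.32 in Sharp1 cells, while ABCG2 fell by 1.25 there and by 0.38 in shHIF cells.

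Genes of iron-sulphur cluster assembly and mitochondrial iron were called higher in shHIF cells for 13 of 28 and lower for 3, with a median difference of 0.124 against 0.047 over all genes. With each array centred on its median, 11 were higher and 4 lower, and without shHIF A and D, 12 and 3. In Sharp1 cells 1 was higher and 5 lower (median -0.05), and in Sharp1 against shHIF 3 and 15 (median -0.186). Most of these 28 genes lie in deciles 9 and 10 of brightness, where calls are more frequent. In those deciles 48.9% and 51.6% of all probe sets were called, in either direction, in shHIF against shGFP. In Sharp1 against shHIF the shares were 59.1% and 63.2%. GLRX5, a glutaredoxin that hands on clusters, read 11.26, 11.29, 11.29 and 11.32 in Sharp1 cells, 11.73, 11.74, 11.64 and 11.78 in shHIF cells, and 11.40, 11.33, 11.33 and 11.43 in shGFP cells, a rise of 0.35 in shHIF (adjusted p = 3.07e-07). CISD3, a mitochondrial iron-sulphur protein, rose by 0.31 there, and the scaffold gene ISCU by 0.19. CISD2 and NFU1, a membrane cluster protein and a late-acting cluster carrier, fell by 0.38 and 0.27 in shHIF cells. CISD2 was also lower in Sharp1 than in shGFP cells (log2 -0.26, adjusted p = 0.00227). CISD1 (mitoNEET), of the outer mitochondrial membrane, read 11.44, 11.44, 11.47 and 11.39 in Sharp1 cells, 12.09, 12.07, 12.02 and 12.14 in shHIF cells, and 11.88, 11.84, 11.86 and 11.89 in shGFP cells. It was thus lower in Sharp1 (-0.43) and higher in shHIF (0.21), both called. SLC25A37 (mitoferrin 1) fell by 0.42 in Sharp1 cells, and NFU1 rose by 0.19. ABCB10, a transporter of the inner mitochondrial membrane, was 0.20 higher in Sharp1 than in shHIF cells (adjusted p = 0.0186), a call lost without Sharp1 A (adjusted p = 0.0684), shHIF B (adjusted p = 0.088) or shHIF A and D (adjusted p = 0.0551).

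**Figure D4:**
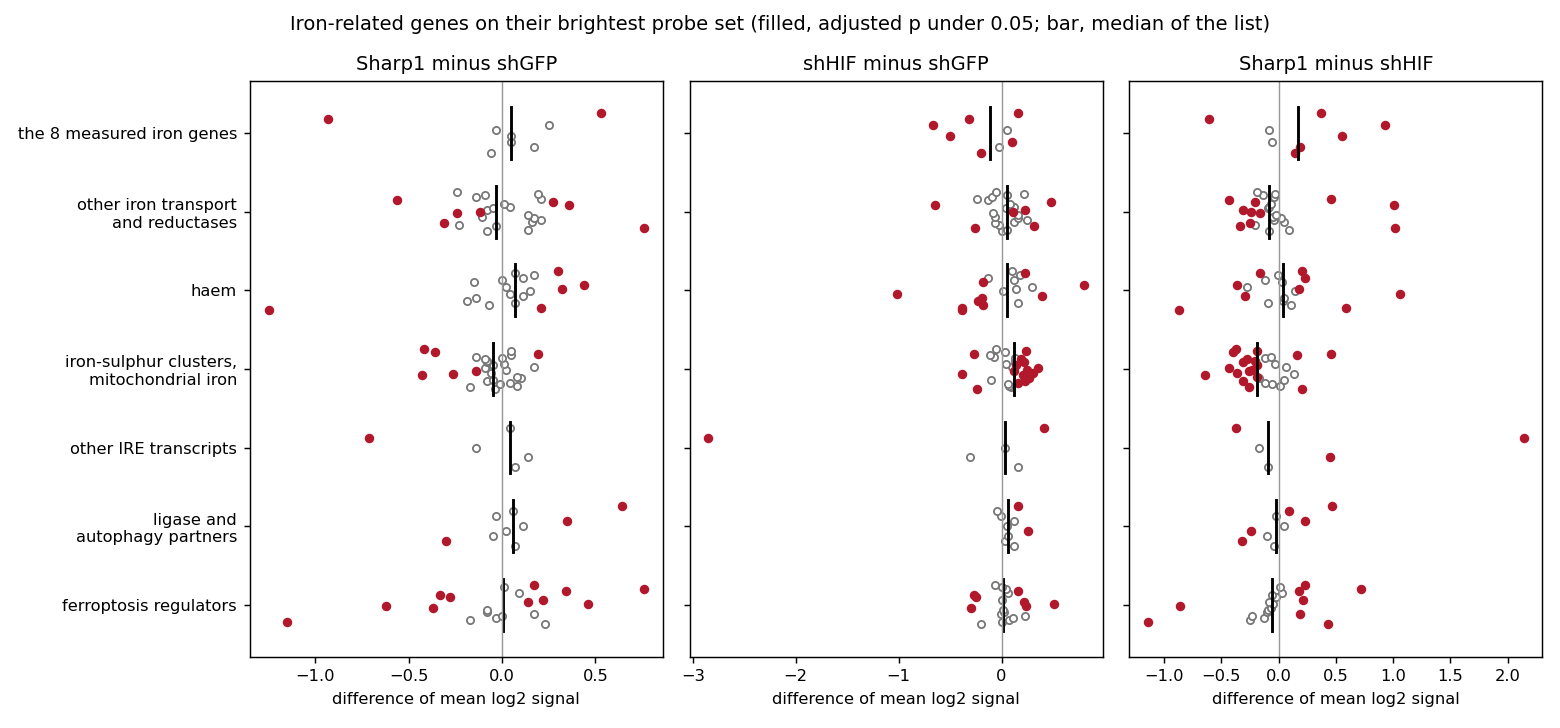
Difference of mean log2 signal for the 8 measured iron genes and 6 lists of related genes on their brightest probe set, 1 point per gene, filled for an adjusted p under 0.05, with a bar at each list's median; the horizontal scales differ between panels. In the shHIF panel the points of the iron-sulphur list crowd to the right of 0 (13 higher, 3 lower), and EPAS1, the targeted gene, lies at -2.85 in the list of transcripts with an iron-responsive element (IRE). Most iron-sulphur genes were read on bright probe sets, where calls are more frequent.

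Among 9 partners of FBXL5 and NCOA4, 2 were higher and 1 lower in Sharp1 cells, 2 and 0 in shHIF cells (4 and 0 at limma's unadjusted p under 0.05), and 3 and 2 in Sharp1 against shHIF (medians 0.058, 0.056 and -0.017). TAX1BP1, an autophagy receptor that acts with NCOA4, read 12.08, 12.06, 12.05 and 12.05 in Sharp1 cells, 11.62, 11.61, 11.53 and 11.58 in shHIF cells, and 11.42, 11.39, 11.39 and 11.49 in shGFP cells. It rose by 0.64 in Sharp1 (adjusted p = 1.19e-12) and by 0.16 in shHIF (adjusted p = 0.00122). MAP1LC3B and GABARAPL2, of the autophagosome coat, rose by 0.35 in Sharp1 and by 0.26 in shHIF cells, in that order, and ATG7 fell by 0.30 in Sharp1 cells. HERC2, a ligase for NCOA4, differed by 0.11 in Sharp1 and 0.05 in shHIF cells, neither called.

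Of 5 other transcripts with a described iron-responsive element, 0 were higher and 1 lower in Sharp1 (also 0 and 1 at limma's unadjusted p under 0.05), 1 and 1 in shHIF, and 2 and 1 in Sharp1 against shHIF (medians 0.038, 0.033 and -0.088). The lower one against shGFP was EPAS1 each time, which is itself targeted in shHIF cells. PFN2, an actin-binding profilin, rose by 0.41 in shHIF cells, and CDC14A, a cell cycle phosphatase, differed by 0.45 between Sharp1 and shHIF cells (adjusted p = 0.00495). CDC14A read 4.31 to 4.73 in Sharp1 and 3.93 to 4.43 in shHIF cells, overlapping and below the median probe set, and its call was lost without shHIF A and D (0.38, adjusted p = 0.0644). Ferroptosis, a death driven by iron and lipid peroxidation, was represented by 20 measured regulators, of which 6 were higher and 5 lower in Sharp1, 4 and 3 in shHIF, and 6 and 2 in Sharp1 against shHIF (medians 0.005, 0.015 and -0.053). AIFM2 (FSP1), which keeps membrane quinone reduced, read 8.20, 8.37, 8.35 and 8.20 in Sharp1 cells, against 9.45, 9.39, 9.42 and 9.46 in shGFP cells, a log2 difference of -1.15 (SE 0.06, adjusted p = 1.61e-13). The shHIF arrays, at 9.37 to 9.55, overlapped the shGFP arrays (difference 0.00, adjusted p = 0.987). SLC7A11, the cystine importer, rose by 0.76 in Sharp1 cells. The 2 subunits of glutamate-cysteine ligase parted in Sharp1 cells, with GCLM up by 0.46 and GCLC at -0.62, whereas in shHIF cells they rose by 0.51 and 0.24. GCH1 and NQO1, an enzyme of tetrahydrobiopterin synthesis and a quinone reductase, fell by 0.30 and 0.27 in shHIF cells (adjusted p = 5.67e-05 and 0.000142). Both were also lower in Sharp1 than in shGFP cells (log2 -0.37 and -0.33, adjusted p = 2.9e-06 and 1.3e-05). ACSL4, which charges polyunsaturated fatty acids for membrane lipids, was 0.43 higher in Sharp1 than in shHIF cells (adjusted p = 0.000901).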

How the data were processed

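The deposited values are log2 expression values that the authors made with RMA, per the submitters' processing notes, which corrects background, normalizes between arrays and gives 1 value per probe set. The RMA version, detection calls and scan dates were not used here. The 12 columns were assigned to groups by sample title. Of 54675 probe sets, 62 controls were left out of the tests, 41097 had 1 gene symbol, 1801 had several and 11777 were not named. Symbols came from the platform annotation of GEO and were checked by gene ID against RefSeq (GRCh38.p14). Probe sets with several symbols were not counted for any gene.

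R 4.3.3 and limma 3.58.1 were used: a mean per group over all 12 arrays, eBayes with trend, two-sided tests, and Benjamini-Hochberg adjustment over 54613 probe sets within each comparison, with calls at 0.05. Precision is limited by the 4 arrays per group and by signal over background, as arrays give no counts. List genes were read on the probe set whose 12-array mean was highest. Of 176 list entries, 161 were measured.

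The members and lists were chosen with earlier results of these data known. Genes named from a list are up to 2 called rises and 2 called falls with the largest change per comparison, beside the targeted genes and the 4 genes nearest in profile to the member with the largest group difference. ISCU and HERC2 were named after their values were seen. Alternatives were leaving out each array, the replicate letter as a block, 1 probe set or the mean probe set per gene, array centring, quantile normalization, no dim probe sets, no variance trend, array weights, 2 groups only, and no shHIF A and D. Of 12 same-letter pairs of arrays, 1 had deviations that correlated above 0.1 (range -0.157 to 0.13), so the letters were not taken to pair samples.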

Additional observations from a re-analysis of the deposited data

Results flagged for a closer look

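In 5 of 63 groups of 4 arrays (21 probe sets in 3 groups), 1 array stood apart by more than Dixon's critical value for the gap over the range; chance gives about 1 in 20 groups. TFRC 237215_s_at read 4.99 on Sharp1 B, against 7.04 to 7.21 on the other Sharp1 arrays, and 6.06 on shGFP D, against 6.63 to 6.69 on the other shGFP arrays. The ribosomal RNA controls were lowest on the same 2 arrays (12.16 and 13.14, against 13.30 to 13.46 on the other 10), and their part in these readings was not tested. STEAP3 218424_s_at read 9.43 on shGFP D, against 9.23 to 9.24 on the others. SLC11A2 203124_s_at read 8.23 on Sharp1 A, against 8.40 to 8.41. ACO1 237622_at read 4.41 on shHIF B, against 4.90 to 5.0.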

How the results depend on the processing

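Of 24 differences of a gene on its brightest probe set, 14 were called, and 9 of these kept direction and call in every alternative run. Of the 10 not called, 9 stayed so, FBXL5 in Sharp1 cells being the exception. No called difference changed sign. Called probe sets numbered 3 to 4 higher and 2 to 3 lower in Sharp1 against shGFP when each array was left out in turn, 3 to 5 and 4 to 6 in shHIF against shGFP, and 7 to 8 and 3 to 4 in Sharp1 against shHIF. With 1 probe set per gene, which leaves 8, 1 was lower in Sharp1, 2 were higher in shHIF, and 5 were higher and 1 lower in Sharp1 against shHIF. With the mean of a gene's probe sets the same counts were 1, 1, 4 and 1. Without the variance trend 2 were higher in shHIF, and without shHIF A and D 5 were higher in Sharp1 against shHIF; the cause was not tested. The block by replicate letter gave 4 higher and 2 lower in Sharp1, 4 and 5 in shHIF, and 8 and 4 in Sharp1 against shHIF, and of the gene differences it changed the call of FBXL5 in Sharp1 cells only (adjusted p = 0.0498). Of the 12 arrays, 1 correlated best with its own letter. With array centring 4 were higher and 2 lower in Sharp1, 3 and 5 in shHIF, and 8 and 3 in Sharp1 against shHIF. Other settings for the lists were chosen after seeing the data. Over these, 2 iron-sulphur genes were higher in Sharp1 in each, 2 or 3 haem genes were lower in Sharp1 without shHIF A and D or with 1 probe set per gene, and without shHIF A and D 1 iron-sulphur gene and 1 transcript with an iron-responsive element were higher in Sharp1 against shHIF. With array centring 2 genes of the iron transport list were higher in shHIF, and with 1 probe set per gene 2 transcripts with an iron-responsive element were lower. Dim probe sets near or below 5.41 limit what can be said of SLC40A1, of the second ACO1 probe set, of HAMP and of CDC14A. Of 77 called differences of genes named from the lists, 8 lost the call or moved by over 1.5 times in at least 1 of 14 alternatives added after seeing the data. Those not given with the genes are 3: HAMP in Sharp1 against shHIF, -0.21 without shHIF A and D (adjusted p = 0.2); and SLC46A1 and FLVCR1 in the same comparison, each not called in 8 of the 14.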
